A study of Drosophila melanogaster with 3 samples.

Results

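Near-promoter intronic peaks of the transcription factor tap lie inside introns but within a few kilobases of a promoter. They were chosen by position alone: a peak of the thresholded set counted when its summit was more than 500 and at most 5000 bp from the nearest transcription start site (TSS) of any gene, inside the span of a protein-coding transcript, and outside every annotated exon. The rule selected 1128 of the 4336 thresholded peaks (26.0%, 95% Wilson interval 24.7 to 27.3). The other classes were 1786 promoter peaks, with summits at most 500 bp from a TSS, and 532 peaks that were near a TSS but outside coding genes. A further 568 were intronic at more than 5000 bp from any TSS, called remote intronic here, and 322 were in exons or remote from genes.

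The peaks come from chromatin immunoprecipitation sequencing (ChIP-seq) with an antibody against GFP, on whole Drosophila melanogaster embryos aged 6 to 16 h and of mixed sex, in 3 biological replicates. All embryos came from a transgenic line with a tap protein that bears eGFP at its C-terminal end, and there was no second genotype or treatment. Whole embryos mix the few cells that express tap with many others, so a peak has no cell type of its own. The deposited lists give no read counts, so depth is unknown, and coordinates are in dm6.

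The protein tap is a neurogenin-type transcription factor with a basic helix-loop-helix (bHLH) domain, and such factors bind E-boxes, sites of the form CANNTG. Introns close to a promoter, and the first intron above all, often hold enhancers and internal promoters in flies, and long first introns are typical of developmental regulators. Many fly genes start at several TSSs, so that an intron of a long transcript can hold the promoter of a shorter one.

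The sequences of the strongest of these peaks are shown first, because the base composition described below can be read from them directly. They are the 4 peaks of highest signal, each with 120 bases to either side of the summit, 5′ to 3′ on the strand of the host gene, from the RefSeq copy of the assembly. Capitals mark, on either strand, the 10 hexamers that lead the comparison at equal GC content. Their ratio of the share at summits to the share in intron windows of the same GC content was 3.12 for ACAGTG, 2.68 for GTGCAC, 2.56 for CAGTGC, 2.53 for ACACTG, 2.37 for CAGTGG, 2.24 for CTGTGC, 2.21 for GTACAC, 2.19 for CACTGA, 2.17 for CTGTAC and 2.15 for ACTGTA.
CG11050, chr2L:6612589-6612829, plus strand: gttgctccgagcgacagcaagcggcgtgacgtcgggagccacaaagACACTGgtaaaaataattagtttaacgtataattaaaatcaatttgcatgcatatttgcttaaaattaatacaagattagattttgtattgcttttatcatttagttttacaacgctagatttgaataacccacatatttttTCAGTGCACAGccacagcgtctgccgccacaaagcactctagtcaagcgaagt
ush, chr2L:480976-481216, plus strand: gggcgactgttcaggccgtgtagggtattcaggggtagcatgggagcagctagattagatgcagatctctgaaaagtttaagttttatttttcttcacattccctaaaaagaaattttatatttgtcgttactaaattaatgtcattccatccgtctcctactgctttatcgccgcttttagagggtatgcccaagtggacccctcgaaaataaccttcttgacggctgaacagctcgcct
Lk6, chr3R:11760926-11761166, minus strand: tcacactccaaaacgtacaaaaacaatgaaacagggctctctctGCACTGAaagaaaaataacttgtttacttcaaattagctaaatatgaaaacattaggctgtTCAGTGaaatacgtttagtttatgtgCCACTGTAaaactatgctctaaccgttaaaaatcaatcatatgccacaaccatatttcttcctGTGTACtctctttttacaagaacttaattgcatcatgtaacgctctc
Trl, chr3L:14759391-14759631, minus strand: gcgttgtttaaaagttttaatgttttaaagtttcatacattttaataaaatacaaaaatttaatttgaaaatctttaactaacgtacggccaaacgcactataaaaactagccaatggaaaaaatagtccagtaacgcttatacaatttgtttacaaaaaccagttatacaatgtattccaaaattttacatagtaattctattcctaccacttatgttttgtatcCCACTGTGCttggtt
The middle of each sequence, where the summit lies, is made mostly of A and T. In the peak of CG11050 that stretch is the 140-bp intron itself, so the marked run before it lies in an exon and the one after it spans the end of the intron. In the peak of Lk6 there are 7 marked starts, and the peak of ush has none.

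A second set of 2 peaks shows the placement of the same hexamers where they are frequent, and was chosen for its many marked starts.
CHES-1-like, chrX:7700297-7700537, minus strand: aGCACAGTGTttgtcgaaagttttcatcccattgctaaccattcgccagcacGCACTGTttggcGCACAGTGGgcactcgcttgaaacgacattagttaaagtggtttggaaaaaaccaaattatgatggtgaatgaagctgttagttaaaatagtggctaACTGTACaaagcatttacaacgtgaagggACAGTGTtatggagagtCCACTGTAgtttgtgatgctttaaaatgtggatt
Septin4, chrX:16691505-16691745, minus strand: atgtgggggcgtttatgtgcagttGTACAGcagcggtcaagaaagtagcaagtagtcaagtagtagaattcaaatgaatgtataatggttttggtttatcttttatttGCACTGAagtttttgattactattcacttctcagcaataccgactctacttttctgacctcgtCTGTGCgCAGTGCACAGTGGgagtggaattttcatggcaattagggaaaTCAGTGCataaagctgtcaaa
The peak of CHES-1-like, a gene for a forkhead transcription factor, had 15 marked starts, and that of Septin4, a septin gene, had 11. Each holds GCACAGTGG within its marked runs. The peaks ranked 312 and 514 in the thresholded set.

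The strongest near-promoter intronic peak was also the strongest peak of the whole set. It lay in a 140-bp intron of CG11050 (FBgn0031836, chr2L:6612406-6612901), 1022 bp from the TSS of that gene, with a signal of 4027. It ranked 2, 1 and 2 in the lists of replicates 1, 2 and 3. The next was in the first intron of ush (FBgn0003963, chr2L:480907-481277), which encodes a zinc-finger partner of GATA factors. It had a signal of 3664 and ranked 5, 2 and 4, and the nearest TSS, at 1408 bp, was that of the neighbouring gene cbt. The peak in the first intron of Lk6 (FBgn0017581, chr3R:11760886-11761225), a protein kinase gene, had a signal of 2646 and ranked 18, 18 and 7. That of Trl (FBgn0013263, chr3L:14759341-14759713), the gene of GAGA factor, lay in a later intron upstream of the coding sequence, with a signal of 2407 and ranks of 16, 9 and 61. These 4 peaks were near the top of every replicate.

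The other genes holding the 25 strongest of these peaks included several regulators of chromatin and of signalling. Among the chromatin genes were trx, which encodes the Trithorax histone methyltransferase (signal 1416, ranks 88, 99 and 57), simj, a subunit gene of the NuRD complex (1268, ranks 68, 80 and 279), and Alh (1205, ranks 91, 128 and 154). A peak at 604 bp from the TSS of HmgZ lay in an intron shared with HmgD, both genes of HMG-box chromosomal proteins (signal 1784, ranks 35, 33 and 116). The histone demethylase gene Kdm2 carried the least even of the 25, at ranks 58, 36 and 1446 (mean 513 in the 3 lists, signal 1363). Kinase genes were Tlk, the Tousled-like kinase gene (1822, ranks 46, 56 and 27), for, a cGMP-dependent kinase gene (1733, ranks 59, 54 and 31), and Raf, of the MAP kinase cascade (1512, ranks 77, 92 and 37). Argos, a secreted inhibitor of the EGF receptor, is encoded by aos, whose peak lay in an intron shared with CG33158 (signal 1296, ranks 96, 140 and 68). The transcription factor gene NFAT ranked 65, 77 and 65, and norpA, the phospholipase C gene of phototransduction, 139, 115 and 60. The remaining host genes were CG32772, chif with Hyls1, Reph, CG12769, CG9663, CHES-1-like, CG9837, CG31635, CG31612 and CG1677 with Dok.

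**Figure D1:**
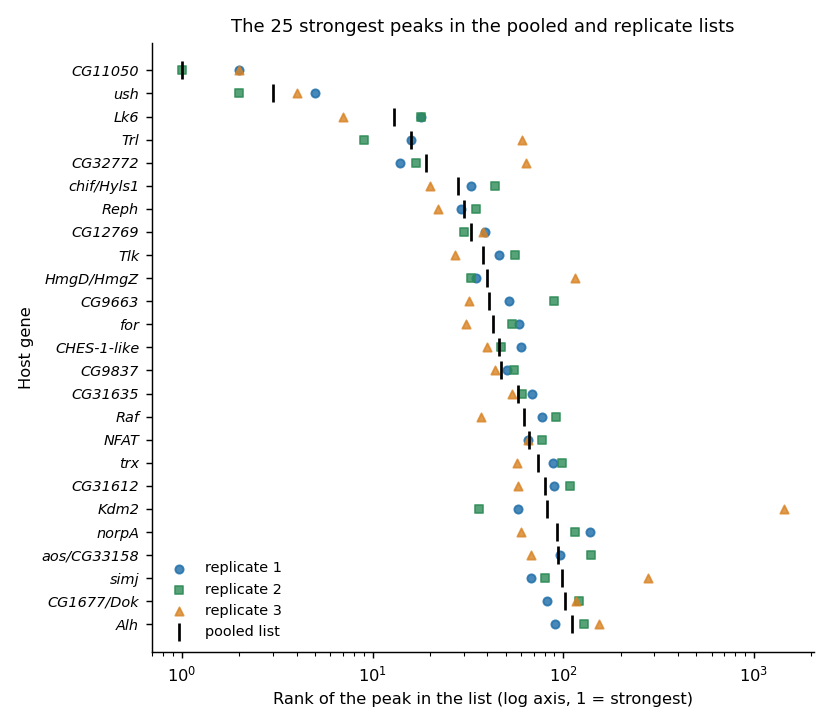
Rank of the 25 strongest near-promoter intronic peaks (rows, by host gene) in the pooled list (black bar) and in the lists of the 3 replicates (symbols), on a log axis where 1 is the strongest. Most peaks ranked close together in all lists, and Kdm2 stood apart with rank 1446 in replicate 3.

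By signal these peaks were stronger than the other distal classes, and their order against promoter peaks depended on how strength was counted. Their signal ran from 153.8 to 4027 with a median of 266, against medians of 258 within 500 bp of a TSS and 225 near a TSS outside coding genes. Of the 100 strongest peaks of the set 23 were near-promoter intronic and 64 lay within 500 bp of a TSS. The 1084 strongest peaks of the set took in 27.0% of the near-promoter intronic peaks, 18.1% of intronic peaks beyond 5000 bp (odds ratio 1.67, Fisher's exact test, two-sided, Benjamini-Hochberg adjusted p = 0.000252 over 12 comparisons) and 15.4% of those outside coding genes (odds ratio 2.03, adjusted p = 1.31e-06). In the strongest 4336 peaks of each replicate the share among the top 1084 was 27.3% ± 1.37 (SD, n = 3), against 19.7% ± 1.69 and 17.3% ± 1.56. Promoter peaks reached 30.2%, a difference that did not pass the threshold (odds ratio 0.857, Fisher's exact adjusted p = 0.121), and the replicate means of 27.3% and 28.3% ± 1.54 differed by less than their SD. That comparison depended on where the line was drawn: the odds ratio was 1.09 with the line at the 2168 strongest and 0.694 at the 433 strongest (unadjusted Fisher's exact p = 0.269 and 0.00219).

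Replicate support was higher than in any of the classes compared. A near-promoter intronic peak was among the strongest 4336 of all 3 replicates in 621 cases (55.1%). The share was 48.6% within 500 bp of a TSS (odds ratio 1.30, Fisher's exact adjusted p = 0.00213), 46.7% for remote intronic peaks (1.40, adjusted p = 0.00281) and 45.5% for peaks outside coding genes (1.47, adjusted p = 0.00113). Replicate 3 held the fewest, with 70.1% of the near-promoter intronic peaks among its strongest, compared with 84.1% and 85.4% in replicates 1 and 2. With support counted in replicates 1 and 2 alone, the odds ratio against promoter peaks was 1.17 and no longer passed (unadjusted Fisher's exact p = 0.0792).

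**Figure D2:**
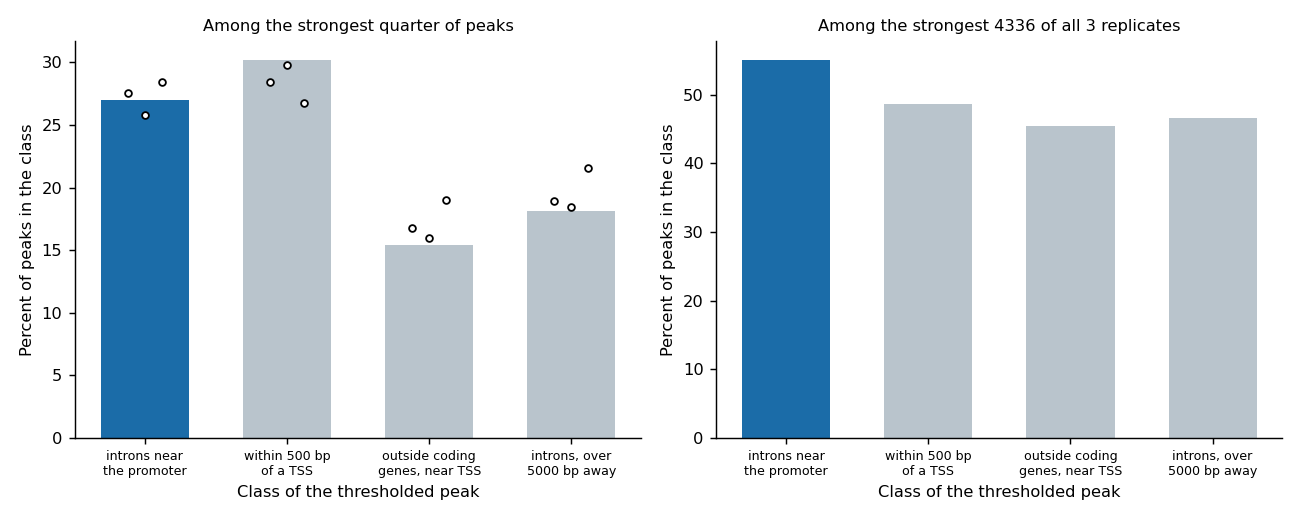
Left, percent of thresholded peaks of each class that fell among the 1084 strongest by signal (bars), with the same share among the strongest 4336 peaks of each replicate (white points). Right, percent among the strongest 4336 of all 3 replicates. Near-promoter intronic peaks (blue) reached 27.0% and 55.1%.

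First introns held most of the peaks that could be placed. In 547 cases (48.5%) the summit was in the first intron of every host transcript that held it, in 258 (22.9%) in a later intron of every one, and in 323 (28.6%) in an intron that was first in some transcripts and later in others. The strongest peaks of the replicates gave 49.8% ± 0.600, 22.0% ± 0.387 and 28.2% ± 0.319 (SD, n = 3). Among 6733 weaker peaks of the pooled list chosen by the same rule, 3006 were in first and 2101 in later introns, so that the thresholded peaks were shifted toward first introns (odds ratio 1.48, Fisher's exact p = 8.40e-07, two-sided, counting first and later introns only). First-intron peaks also fell among the 1084 strongest more often than later-intron peaks, at 29.8% and 21.7% (odds ratio 1.53, Fisher's exact adjusted p = 0.0349), and at 29.1% ± 1.11 and 23.8% ± 1.23 in the replicates (SD, n = 3). Support in all 3 replicates was 57.2% and 50.4% (Fisher's exact adjusted p = 0.121). The tests count peaks, and their p-values describe this set of peaks and not the spread between embryos.

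Per base of intron the difference was larger than these counts, since later introns offered more sequence. The rule left 24.0 Mb of eligible intron sequence, of which 8.67 Mb was in first, 4.99 Mb in mixed and 10.4 Mb in later introns. First introns held 63.1 peaks per Mb (95% Poisson interval 57.9 to 68.6), mixed introns 64.8 and later introns 24.9 (21.9 to 28.1). The ratio of first to later was 2.53, and 2.71 ± 0.0774 in the replicates (SD, n = 3), whereas the weaker pooled peaks gave 1.71. First introns also lie nearer to the TSS, so the ratio was taken again within bands of distance. It was 2.03 between 500 and 1000 bp (82.9 and 40.8 peaks per Mb), 3.01 between 1000 and 2000 bp (77.5 and 25.7) and 2.05 between 2000 and 5000 bp (43.4 and 21.2). The nearest band was the least even, at 2.41 ± 0.581 in the replicates (SD, n = 3).

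**Figure D3:**
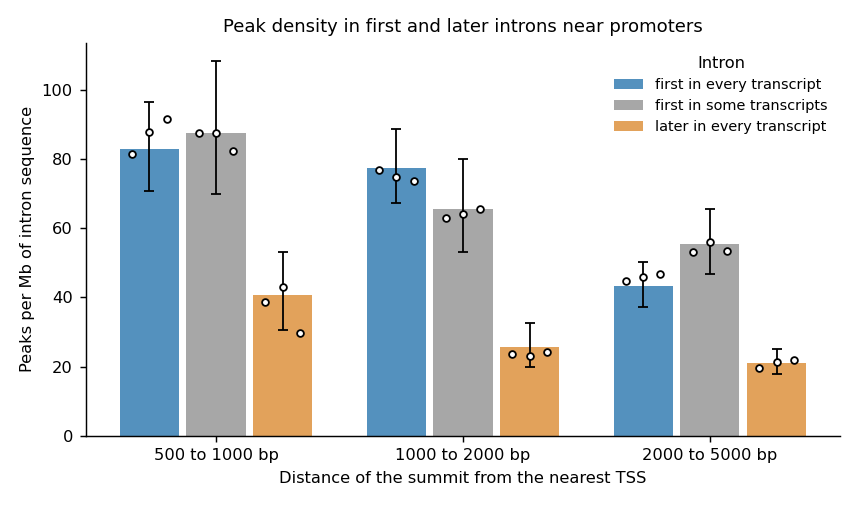
Thresholded peaks per Mb of eligible intron sequence (bars, with 95% Poisson intervals) by distance from the nearest TSS and by the place of the intron in its transcripts, with the strongest 4336 peaks of each replicate as white points. First introns were above later introns in all 3 bands, at 82.9 against 40.8, 77.5 against 25.7 and 43.4 against 21.2 peaks per Mb.

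The place of an intron relative to the coding sequence separated the peaks less. Introns upstream of the coding sequence held 445 of the peaks (39.5%), introns within or after it 511 (45.3%), and the rest varied between transcripts. The densities were 56.0 and 38.8 peaks per Mb, a ratio of 1.44, which fell with distance from 1.75 to 1.52 and 1.11. Against the weaker peaks the odds ratio was 1.14 (Fisher's exact p = 0.0574).

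Most of the peaks were closest to a TSS of their own host gene. This held for 900 of 1128 (79.8%), 643 of them downstream of that TSS and 257 upstream of an internal TSS of the same gene. For 112 the nearest TSS belonged to another protein-coding gene and for 116 to a noncoding gene alone, and 72 lay in introns of more than 1 gene. Their distance from a TSS had a median of 1611.5 bp, and their introns had a median length of 10063 bp, with a range of 140 to 132737 bp. At the limits of the rule, a summit in aru at 500 bp was left out and one in SREBP at 502 bp was kept, and one in CG10479 at 4994 bp was kept where one in Lrch at 5006 bp was not. Another thresholded summit lay within 2500 bp of 47.2% of the near-promoter intronic peaks, compared with 42.5% of peaks near a TSS outside coding genes, 34.4% of promoter peaks and 30.5% of remote intronic ones. Within 1000 bp the first pair of shares was 22.0% and 21.2%.

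By chromosome the density was highest on X, with 55.0 peaks per Mb of eligible sequence (95% Poisson interval 48.5 to 62.1), and lowest among the large arms on 2L, with 40.9 (35.1 to 47.4). In the replicates X had 50.8 ± 1.82 and 3R 48.1 ± 1.56 (SD, n = 3), which lay close together. Chromosome 4 held 3 of the peaks in 0.300 Mb, or 9.99 per Mb (2.06 to 29.2), and 6.66 ± 5.77 in the replicates (SD, n = 3).

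The summits were low in GC. Mean GC content was 31.4% in the 100 bp about them and 41.6% in the windows 500 bp to each side, a difference of -10.2 percentage points (SD 11.2 over peaks) that was negative in 923 of 1128 peaks (81.8%). The low was deepest in the 282 strongest of these peaks, at -12.1, and shallowest in the 282 weakest, at -8.23. First and later introns had nearly the same low, at -10.8 and -9.72, and promoter peaks had -10.9, so it was common to the classes. Weaker pooled peaks chosen by the same rule reached -2.78. Replicates 1 and 2 gave -10.5 and -10.6 and replicate 3 -4.93, so the depth of the low was not shared evenly by the replicates.

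Hexamers differed widely between summits and flanks. Every possible hexamer, counted on both strands, was sought at 200 start positions centred on each summit, and at as many divided over the points 500 bp to either side. At an adjusted p of 0.05 (exact McNemar test across peaks, two-sided, Benjamini-Hochberg), 321 were more frequent at the summit (15.4% of those tested) and 608 less frequent (29.2%). GC content averaged 22.5% over the first group and 66.9% over the second. The largest ratio was that of GTTATA, present in 12.7% of the summit windows but 4.43% of those in the flanks, a ratio of 2.86 (exact adjusted p = 2.61e-10). Its ratio was 2.21 ± 0.625 in the replicates (SD, n = 3), lowest in replicate 3 at 1.52, and 1.54 with flanks at 1000 bp. TTATAA followed, at 22.2% and 8.16% with a ratio of 2.72 (exact adjusted p = 6.18e-18). Also among the 10 highest, beside a pair described below, were AGGGTA (ratio 2.54), CTAAGA (2.44), TAGCTA (2.31), TATTAA (2.28), AATATT (2.27) and ATATTA (2.26). The call of TAGCTA was lost without replicate 1 (ratio 2.06, exact adjusted p = 0.0502), with 100 start positions (1.67, 0.148) and with flanks at 1000 bp (1.56, 0.0575). That of AGGGTA was lost in the 564 strongest peaks (1.91, exact adjusted p = 0.0520). The lowest ratios were those of GCCCGA (0.20), GGAGCC (0.217), CTCCTC (0.256), CGGCTC (0.279) and CGAGGA (0.281). At equal GC content the ratios of the AT-rich leaders were closer to 1: against the share in eligible intron windows standardised to the GC content of the peaks, GTTATA had a ratio of 1.03, TATTAA 1.07, TTATAA 1.21, ATATTA 1.23 and AATATT 1.26.

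The hexamers that led at equal GC content shared only ACAGTG and ACTGTA with the 10 highest against the flanks. ACAGTG was present at 21.6% of summits against 8.69% for flanks, a ratio of 2.49 (exact McNemar adjusted p = 6.62e-16), with 2.20 ± 0.123 in the replicates (SD, n = 3). Its share in eligible intron windows standardised for GC content was 6.94%. ACTGTA was present at 17.5% and 7.27%, a ratio of 2.40 (exact adjusted p = 3.24e-12). The other 8 are those marked in the sequences above. Of the 10, 5 contain CACTG on one strand or the other, so that they overlap and count partly the same sites. Against the flanks 9 of the 10 passed, all but CAGTGG (exact adjusted p = 0.146). They were selected on these same summits, so their frequency there is a description.

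At least 1 of these 10 hexamers was present at 63.8% of the summits, in 46.9% of the flanks, and in 41.2% of all eligible intron windows of the same length, or 36.7% once standardised for GC content. At least 3 starts of different ones were present at 23.8% of summits and 8.16% of flanks, and at 22.9% ± 2.18 and 8.54% ± 0.172 in the replicates (SD, n = 3). A single run of bases can supply all 3, as CCACTGTGC does in the peak of Trl, so the share does not count separate sites. This share was 31.9% in the 282 strongest near-promoter intronic peaks and 19.9% in the 282 weakest, and it was 10.01% in the weaker pooled peaks. First and later introns were close, at 24.3% and 22.1%. Because the 10 hexamers were chosen on these summits, the lower shares elsewhere are a description only.

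These hexamers were densest beside the summit, and at it they were near their distant level. Starts were counted with no adjustment for the lower GC content about the summit. Between 60 and 120 bp from the summit there were 11.8 starts per kb of sequence, compared with 4.41 within 40 bp and 4.14 between 400 and 600 bp. In the replicates the 3 values were 10.7 ± 0.211, 5.01 ± 0.612 and 4.17 ± 0.0544 (SD, n = 3). The rise at 60 to 120 bp was 16.5 starts per kb in the 282 strongest and 8.48 in the 282 weakest, 12.4 in first and 11.5 in later introns, 8.42 in promoter peaks and 4.89 in the weaker pooled peaks. A start lay in this zone before the summit in 35.3% of the peaks, after it in 36.1%, and on both sides in 15.7%. Of the peaks with one before the summit 44.5% also had one after it, against 31.5% of those with none before. The 10 hexamers leading against the flanks, which include ACAGTG and ACTGTA, showed another arrangement, with 14.1 starts per kb within 40 bp, 10.5 between 60 and 120 bp and 5.41 between 400 and 600 bp. Windows of 100 start positions in place of 200 left ACAGTG at a ratio of 1.46 (exact adjusted p = 0.0610), with GTGCAC at 0.964, CTGTGC at 0.983 and CAGTGG at 0.795. In those windows 2 of the 10 passed, ACTGTA (1.63, exact adjusted p = 0.0305) and GTACAC (1.81, exact adjusted p = 0.0184). The zones were drawn after the profile had been seen. The 10 hexamers leading at equal GC content were chosen on these same summits, so their lower densities in promoter and weaker peaks are a description only. The replicates went into the thresholded set, so their values are no independent support.

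**Figure D4:**
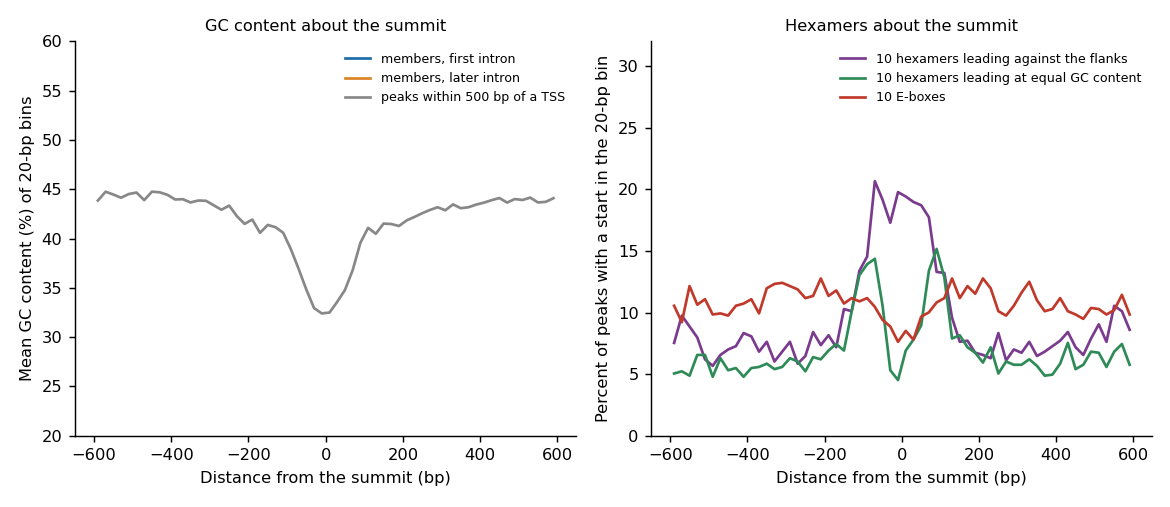
Left, mean GC content in 20-bp bins about the summit, with a curve for promoter peaks only. First-intron and later-intron peaks have no curve in this panel. In the bin centred 10 bp before the summit the mean was 29.0% for first-intron and 30.9% for later-intron peaks. Right, percent of the near-promoter intronic peaks with at least 1 start of 3 sets of 10 hexamers in each 20-bp bin, where the first pair of sets has ACAGTG and ACTGTA in common. The GC low drawn for promoter peaks and the hexamers leading against the flanks are centred on the summit. The hexamers leading at equal GC content peak on both sides of it and are near their distant level in the middle.

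E-boxes were not more frequent at these summits than beside them. Of the 10 possible E-boxes 0 passed as more frequent by the exact McNemar test, and 0 did so before adjustment at 0.05. Less frequent were CACGTG, at 0.975% of summits against 2.57% for flanks with a ratio of 0.379 (exact adjusted p = 0.0181), and CAGCTG, at 7.09% against 9.93% with a ratio of 0.714 (exact adjusted p = 0.0466). Over all hexamers tested 29.2% passed as less frequent, so these 2 of 10 are not read as a depletion of E-boxes. CACGTG lost the call when any single replicate was left out (exact adjusted p of 0.0502 to 0.251), and CAGCTG lost it without replicates 1 and 2 in turn (0.133 and 0.145) but not without replicate 3 (0.0115). Both lost it with flanks at 1000 bp, where the ratio of CAGCTG was 0.851. The others had ratios of 0.779 (CACCTG), 0.813 (CAACTG), 0.926 (CAATTG), 0.928 (CAGATG), 0.939 (CAAGTG), 0.955 (CACATG), 1.02 (CAAATG) and 1.18 (CATATG). At equal GC content the ratio was 1.38 for CAGCTG, 1.34 for CATATG, 1.22 for CACATG, 1.09 for CACCTG and 1.04 for CAGATG. The other E-boxes were below 1, from 0.985 for CAAGTG down to 0.578 for CACGTG. No test was made of these ratios. Any E-box was present at 62.1% of summits, 65.9% of flanks and 65.4% of all eligible windows of the same length. These shares were not standardised for GC content, which averaged 34.2% in summit windows and 39.8% in eligible windows. E-box starts numbered 4.26 per kb within 40 bp of the summit, 5.57 between 60 and 120 bp and 5.44 between 400 and 600 bp.

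First-intron and later-intron peaks did not differ in any hexamer past the threshold (0%, by Fisher's exact test with Benjamini-Hochberg adjustment, and 81 at an unadjusted p under 0.05). That comparison held 547 and 258 peaks, fewer than the next. Against peaks within 500 bp of a TSS, 43 hexamers were more frequent in the near-promoter intronic peaks (2.07%) and 67 less frequent (3.22%). ACAGTG was at 15.9% in the promoter peaks, a description only, since it was chosen for its share in the introns. Among sequences of known factors, ATCGAT, within the site of the promoter factor DREF, was at 4.70% against 11.5% (Fisher's exact adjusted p = 4.30e-08), and GGTCAC, from the site of M1BP, at 2.04% against 7.45% (exact adjusted p = 1.99e-08). GAGAGA, bound by GAGA factor, was at 10.5% against 11.5% (Fisher's exact adjusted p = 0.756) and 13.3% in flanks. TATGCA, part of the octamer of POU factors, was higher in the introns, at 18.5% against 13.8% (exact adjusted p = 0.0267), and the AT repeat TATATA was at 21.5% against 22.7% (exact adjusted p = 0.774). In the flanks of intronic and promoter peaks TATGCA was at 14.6% and 10.5%, GGTCAC at 3.37% and 6.27%, and ATCGAT at 5.50% and 6.61%. TATGCA and GGTCAC thus differed in the same direction beside the summits, and the tests did not adjust for that.

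The peaks lay in 783 host genes, out of 6043 protein-coding genes with at least 200 bp of eligible intron sequence (13%). A single peak was held by 539 of them, and the 244 with more held 635 of the peaks. CG1677 had 12, the most, and for every one the nearest TSS belonged to another gene inside or beside its long intron, among them unc-119, CBP, brk, Atg5 and Dok. The zinc-finger gene shn, whose product acts in BMP signalling, had 11, from a signal of 1106 in its first intron down to 174.9. CHES-1-like had 9, all in its first intron, and Tlk had 8. They were followed by ush and tou, a chromatin protein gene (7 each), sick and the ETS factor gene pnt (6 each), and Raf and CG42258 (5 each). The gene tap itself has no annotated intron and so could hold none.

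Genes with such a peak often also had one at the promoter. A thresholded summit lay within 500 bp of a TSS in 324 of the 783 host genes (41.4%) and in 15.3% of the 5260 other genes. Host genes had longer introns and more TSSs, a mean of 2.48 and 1.59 positions. Split by the amount of eligible sequence into 3 groups of like size, the shares were 44.5% and 17.9% in the genes with the most, 33.9% and 15.6% in the middle group, and 17.4% and 13.2% in the genes with the least, where 23 were host genes. Counting only peaks that both other replicates supported gave 23.8% of host genes without replicate 1, 27.0% without replicate 2 and 29.7% without replicate 3. Both kinds of peak were then fewer, and the share in the other genes was not taken again.

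Among 18 gene lists the density of peaks in eligible introns ranged from 23.5 to 180 per Mb, where all genes had 48.0. The lists share some genes, and counts were small in many of them, so they are described with no test. By the share of genes holding a peak each list was above the 13% of all genes. The shares ran from 14.3% for epidermis and cuticle to 47.8% for nuclear receptors, so a low density here does not mean few host genes. These shares were not adjusted for intron length. Genes with a peak had a median of 7014 bp of eligible sequence, and genes without had 1071 bp. A share above 13% is therefore not read as enrichment. Chromatin regulators and insulator proteins had 156 per Mb (108 to 218, 34 peaks), and 150 ± 7.01 in the replicates (SD, n = 3), from Trl, trx, Sin3A, a co-repressor gene (signal 729), the Polycomb group gene ph-p (666), tna, tou and others. The BMP, hedgehog and JAK-STAT genes had 153 per Mb (97.0 to 230, 23 peaks), of which 11 were in shn, and 104 without it. Here Mad, the BMP-activated transcription factor, had a first-intron peak with a signal of 909.6, wit, a BMP receptor gene, one of 543, and Stat92E one of 455. The EGF and FGF receptor pathways had 112 per Mb (72.6 to 166, 25 peaks), with Raf, aos, the FGF gene ths (664) and S, which encodes the EGF transporter Star (539), leading. Cell cycle genes had 180 per Mb from only 10 peaks (86.3 to 331), 5 of them in E2f1, with trbl (734), CycE (306) and Cdk4 (277).

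Several lists lay between these and the overall density. Genes of junctions, polarity and the cytoskeleton had 83.7 per Mb (34 peaks), led by Moe, the moesin gene (834), cno (729), pyd (601) and RhoGEF64C (409). Glial genes had 76.9, but 58.6 ± 6.34 in the replicates (SD, n = 3). Of their 7 peaks 6 were in pnt, and without that gene the density was 15.7. The ratio of the glial list to all genes fell from 1.60 to 0.380 without replicate 1 and 0.761 without replicate 2. Trachea, gut and blood genes had 73.8 and 48.1 without ush. The Notch pathway had 71.8 (34.4 to 132, 10 peaks), with mam, the co-activator mastermind (675), neur, a ubiquitin ligase gene (599), nmo (290) and bib (278). Wnt and planar cell polarity genes had 68.1 (17 peaks), with the glypican genes dlp (640) and dally (395), nkd (478) and pk (326). Nuclear receptors and the ecdysone response had 60.5, with Hr4 (964), ImpL2 (853), ftz-f1 (391) and Hr3 (334). Growth control genes of the insulin, TOR and Hippo pathways had 59.7 from 5 peaks, but 87.5 ± 6.89 in the replicates (SD, n = 3). Lk6 led this list, followed by ex (444), InR (406) and kibra (298).

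The interval of the bHLH list took in the overall density. The neuronal lists lay below it per Mb, but the interval of the axon guidance list took it in too, and that of the synapse list did not. The bHLH factors had 64.4 per Mb (29.4 to 122, 9 peaks), with sim, the regulator of the midline (1054), crp (689), Mnt (359) and SREBP (357). Developmental transcription factors had 47.6 (33.8 to 65.0, 39 peaks), led by ush, bowl (777), zfh1 (771) and grh (662). RNA-binding and translation regulators had 48.0 and muscle and mesoderm 49.7. In these, brat (1086), Rbfox1 (785), Sxl (648) and mub (579) led the first list, and Msp300 (849), kirre (765), mew (444) and mbc (412) the second. Axon guidance and neuronal adhesion genes had 39.1 (26.7 to 55.2, 32 peaks), with kirre, Sema1a (588), the netrin receptor gene fra (484) and trio (451). A peak was held by 32.8% of these genes, a share not adjusted for intron length. Epidermis and cuticle had 37.4, with grh, sn (436) and mwh (241). Genes of the synapse and of excitability had the lowest density, 23.5 (11.3 to 43.2, 10 peaks, in 17.8% of the genes), and their strongest peaks were in KCNQ, a potassium channel gene (1044), Syn (452), elav (368) and Nmdar1 (290).

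**Figure D5:**
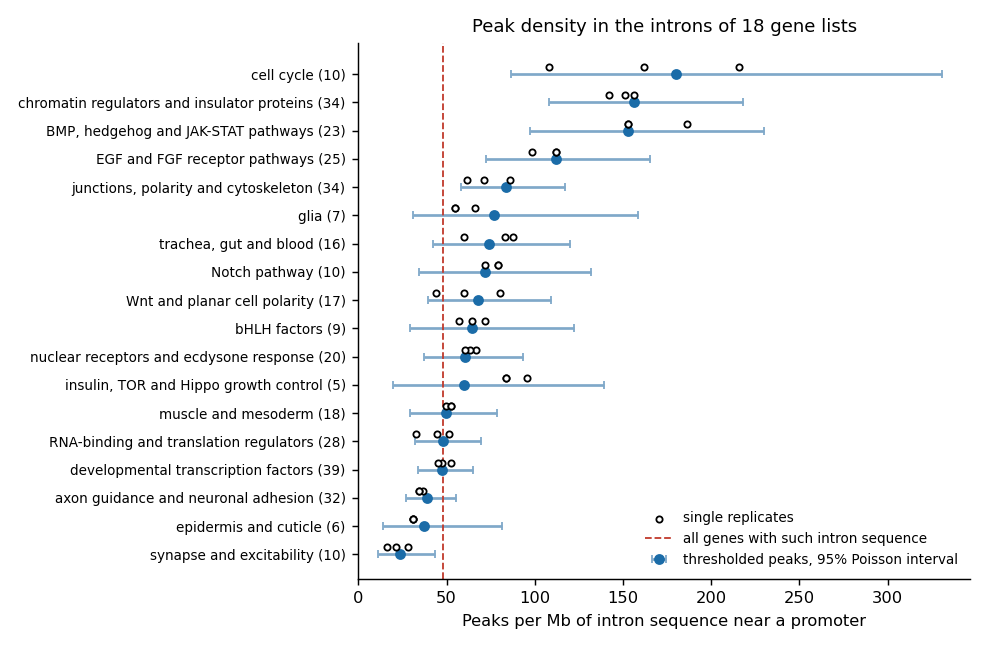
Near-promoter intronic peaks per Mb of eligible intron sequence in 18 gene lists (blue, with 95% Poisson intervals and the number of peaks in brackets), with the strongest 4336 peaks of each replicate as white points. The dashed line marks all genes at 48.0 per Mb; the lists run from 23.5 for synapse and excitability to 180 for the cell cycle.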

How the data were processed

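ChIP-seq peak lists of 3 replicates, of the pool and of the thresholded set were used as deposited, in dm6 per the labels. Each list gives a signal per peak as the authors deposited it and, by the format of the file, a −log10 q-value, which was not verified and served only as an alternative ranking. The steps from reads to peaks, the software and the threshold were not given in the sources used here. The control was not analysed here. Signal served to rank the peaks of a list, and each replicate entered by its strongest 4336 of 30000 peaks, with summits within 200 bp counted as shared.

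TSSs, introns and exons came from Ensembl release 115 (FlyBase release 6.54), without annotated transposable elements, and the sequence from RefSeq. Counts were compared with Fisher's exact and the exact McNemar test, adjusted by Benjamini-Hochberg (Python 3.11.15, numpy 2.4.6, pandas 2.3.3, scipy 1.17.1), and checked on simulated data. GC standardisation used bins of 2.5 percentage points. Intervals cover only the counting of peaks.

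The peaks, lists and tests were chosen with earlier results of these data known. The genes named are the hosts of the 25 strongest peaks, the 10 with the most peaks and up to 4 of each list. The hexamers are the 10 largest and 5 smallest ratios that passed 0.05 after adjustment and occurred at 5% or more of summits or flanks, the E-boxes and sites of known factors. The hexamers leading at equal GC content were added after seeing the data. In the lists 28 symbols were not matched and were left out. Alternatives were other distance limits, TSS sets, windows, flanks, ranks and subsets, and leaving out each replicate.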

Additional observations from a re-analysis of the deposited data

How the results depend on the processing

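The share of thresholded peaks that were near-promoter intronic was 26.0% and moved with the limits of the rule: 19.0% from 1000 bp on, 17.7% up to 2500 bp, 33.3% up to 10000 bp, 25.1% with TSSs of protein-coding genes only, 24.8% with the whole interval outside exons, and 28.5% in the 2168 strongest peaks of the set. With transposable elements counted as genes, a setting chosen after seeing the data, it was 27.0%. Leaving out a replicate gave 27.6% to 28.6%. The odds ratio for first introns stayed above 1 and past the threshold in every setting run, at its lowest, 1.20, with the intron number of the longest transcript and at 1.57 to 1.61 without a replicate. The density ratio of first to later introns was 2.65 in those strongest peaks, 2.03, 3.01 and 2.05 in the 3 bands of distance, 1.71 in the weaker pooled peaks and 2.68 to 2.75 without a replicate. The odds ratio of strength against promoter peaks, 0.857, turned to 1.09 for the 2168 strongest, to 1.16 for peaks tied at the maximum q-value (74.8% of the set) and to 1.11 by the order of replicate 3. It passed the unadjusted threshold for the 433 strongest (0.694), by the order of replicates 1 and 2 (0.821 and 0.793) and in the subsets left without a replicate (0.594 to 0.704). Replicate support against promoter peaks ran from 1.17 to 1.35 without a replicate and failed without replicate 3. The GC difference lay between -7.66 and -11.8 percentage points in all settings. The count of less frequent hexamers was 307 in the 564 strongest of the peaks and 299 to 562 without a replicate, 299 without replicate 1 and 313 without replicate 2, with 682 and 681 of the peaks left. Less frequent E-boxes numbered 3 in windows of 100 start positions, 6 with flanks at 300 bp, 1 with flanks at 1000 bp, 1 in the 564 strongest and 0 to 1 without a replicate. In the main setting 2 of 10 E-boxes passed as less frequent, beside 29.2% of all hexamers. No setting run gave an E-box as more frequent. Ratios of single hexamers crossed 1 as follows. In windows of 100 start positions CAAATG had 0.992, CATATG 0.918, CAGTGG 0.795, CTGTGC 0.983 and GTGCAC 0.964. With flanks at 300 bp CAAATG had 0.904 and CAGATG 1.10, and with flanks at 1000 bp CAAATG had 0.979 and CACATG 1.04. In the 564 strongest peaks CAAGTG had 1.04. Without a replicate CAAATG ranged from 0.944 to 1.06 and CAATTG from 0.896 to 1.03. The share of host genes with a promoter peak was 23.8% and 60.8% with windows of 200 and 1000 bp, 25% with the 2168 strongest peaks of the set, and 23.8% to 29.7% without a replicate. In these settings the share in the other genes was not taken. The share of genes holding a peak, 13%, was 7.74% with the 564 strongest of these peaks, 11.2% where the nearest TSS was the host's own, and 8.89% to 10.5% without a replicate. Relative to all genes, the density of the chromatin list was 3.25 and ran from 2.22 to 3.06 without a replicate, that of the glial list 1.60 and 0.380 to 1.22, that of the junction list 1.74 and 1.11 to 1.57, and that of growth control 1.24 and 1.66 to 2.07. No samples could be paired between groups because there was 1 group. The McNemar tests did pair each summit with its own flanks.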
